A study of Mus musculus with 12 samples.

Results

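Bone marrow-derived macrophages were treated with recombinant mouse interferon-beta (Ifn-β) for 1 h and compared with cells of the same kind taken before treatment (0 h). All transcript clusters that carry the symbol of exactly 1 gene were examined, which are 14996 of the 23332 on the array and stand for 14860 genes. A transcript cluster is the set of probes over one transcribed region. The macrophages came from male Balb/c mice aged 8 to 9 weeks and were grown from bone marrow in 10000 U/ml of the growth factor Csf1, which both groups received. On day 7, wells were given 10 U/ml Ifn-β and harvested after 1 h (arrays 5 and 8), while the 0 h cells were collected with no Ifn-β (arrays 2 and 4). The time course also has 2 arrays each at 2, 4, 8 and 24 h, and all 12 arrays share an estimate of the spread. The labels call the arrays of a time biological replicates and state that the RNA came from separate wells. Whether the wells held one preparation of marrow or several is not given in the sources used here, so the p-values measure the spread between these arrays, which may be technical. None of the 12 arrays is of a culture at 1 h without Ifn-β, so an effect of Ifn-β and one of handling or of 1 h more in culture cannot be told apart. These are bulk cultures, in which more RNA per cell and more cells that express a gene cannot be told apart either.

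Type I interferons such as Ifn-β are released by infected cells and bind a receptor of the Ifnar1 and Ifnar2 chains. The kinases Jak1 and Tyk2 then phosphorylate factors of the Stat family, and the complex ISGF3, which holds Stat2 and Irf9, binds the interferon-stimulated response element (ISRE). A different site that Stat factors bind is the gamma-activated sequence (GAS). The factors are present before stimulation, so transcription of the first interferon-stimulated genes needs no new protein. Macrophages use this system to sense and restrict viruses and intracellular bacteria.

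The level of a transcript cluster is a log2 value made by the robust multi-array average (RMA), so a difference of 1 is a 2-fold change. A cluster was called higher or lower at an adjusted p under 0.05 (limma, Benjamini-Hochberg) with at least a 1.5-fold change. The medians of the 12 arrays lay between 5.84 and 5.90. Array weights from limma, which are lower where arrays of a time differ more, were 0.341 for both 2 h arrays. For the arrays of the other times they lay between 1.02 and 1.46. The arrays of 1 h correlated at 0.986 and those of 0 h at 0.987, and the differences between them had an SD of 0.420 at 1 h and 0.389 at 0 h. Among markers of cell types, 9 measured macrophage genes, such as Cd68, Csf1r and Adgre1, had a median level at percentile 98.0 of all genes at 0 h, while the medians for 9 other blood, stromal and endothelial cell types lay between percentiles 12.1 and 41.0. Such percentiles set different probes beside each other, and levels depend on the probes as well as on the RNA. Of the 62 marker genes measured, only Fcgr1 of macrophages and Kdr of endothelial cells were called at 1 h.

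After 1 h, 86 clusters (84 genes) were called higher and 7 clusters (7 genes) were called lower. These are 0.573% and 0.0467% of the clusters tested. With p left unadjusted and the fold threshold kept, 182 were higher and 53 lower, while the median change of all 14996 clusters was 0.03. The rises had a median log2 change of 1.24, with 58 at least 2-fold, 19 at least 4-fold and 10 at least 8-fold. For the falls the median change was -0.95, and only Fos fell more than 4-fold. Both 1 h arrays lay above both 0 h arrays in all 86 rises and below them in all 7 falls, against 20.2% and 11.9% of all clusters. The calls were made on these same arrays and all but require this, so it is no further support. The counts depended on the arrays in the fit. With the 4 arrays of 1 h and 0 h alone limma called 0 higher and 0 lower (396 and 186 with an unadjusted p under 0.05 at any fold), and without the 8 h and 24 h arrays it called 49 and 2. Without array 5 (1 h), array 8 (1 h) or array 4 (0 h), 44, 54 and 50 clusters were called higher, and without array 5, 8, 2 or 4, between 2 and 3 were called lower. In contrast, 11 were called lower when array 10 or 12 (2 h) was left out. Of the 86 rises, 44 were called whichever of the 12 arrays was left out, and of the falls, Fos and Ier2 were.

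**Figure D1:**
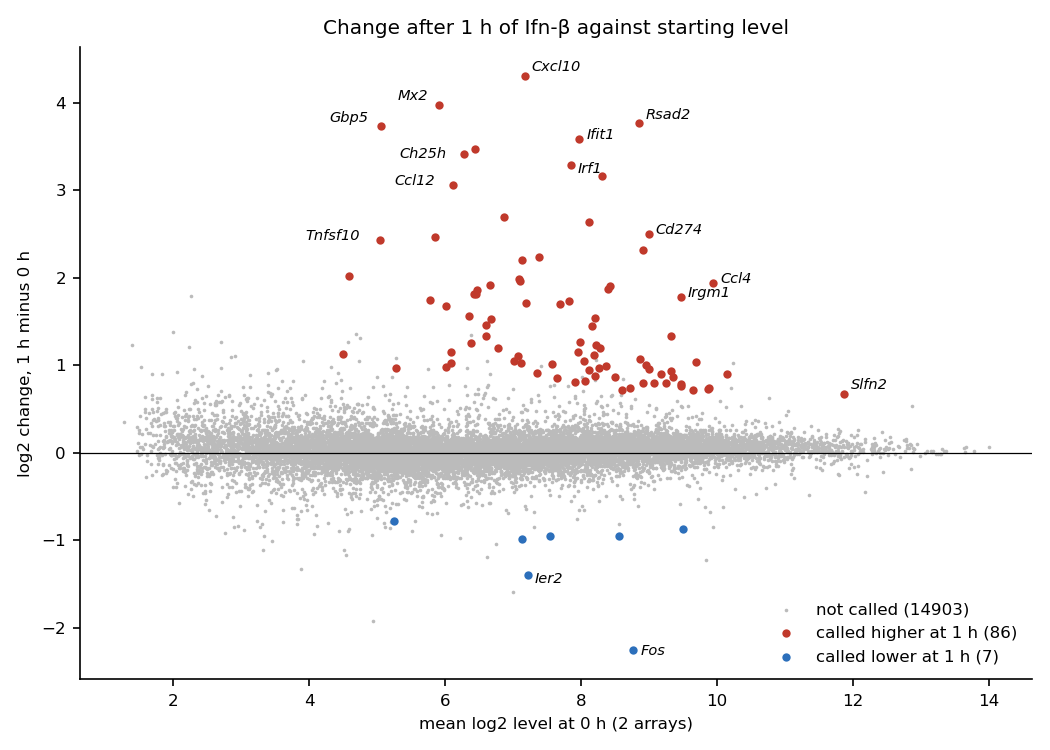
The log2 change of each transcript cluster, 1 h of Ifn-β minus 0 h (vertical axis), is plotted against its mean log2 level at 0 h (horizontal axis). Red points are the 86 clusters called higher, blue points the 7 called lower and grey points all others. Rises are found from low to high starting levels, and the 10 of at least 8-fold begin between 5.05 (Gbp5) and 8.86 (Rsad2).

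Clusters that rose began over a wide range of levels. The median level of the 86 rises was 9.36 at 1 h and 7.96 at 0 h, and their median percentile at 0 h was 69.7, with a range of 19.2 to 99.2. By quartile of the level at 0 h, from lowest to highest, 2, 18, 37 and 29 clusters were called higher, with median changes of 1.58, 1.82, 1.34 and 0.90. The 2 in the lowest quartile are second, lower-level clusters of Socs3 and Tgtp1. The clusters of highest level of these genes began at percentiles 48.8 and 44.9. At the top was Slfn2, a Schlafen family gene, with levels of 12.56 and 12.54 at 1 h, against 11.81 and 11.94 at 0 h, a difference of 0.68 (SE 0.09, adjusted p = 0.0169). By the cluster that stands for each gene, the lowest was Tnfsf10 (percentile 27.7), with levels of 7.50 and 7.45 at 1 h, against 5.34 and 4.74 at 0 h. Of the falls, 3 came from each of the upper 2 quartiles and 1 from the next. The 0 h arrays enter both the change and the quartile, so this is a description. The 0 h arrays also differed in these genes, since array 2 was above array 4 in 69 of the 84 genes that rose (82.1%; median difference 0.17, at most 0.60), against 58.6% of all genes (median difference 0.05). At 1 h, array 5 was above array 8 in 41 of the 84 (48.8%; median difference 0.00). The part of this spread in the calls was not tested beyond leaving out each array.

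The largest rise was that of Cxcl10, a chemokine that attracts activated T cells and NK cells. Its levels were 11.36 and 11.61 at 1 h, against 7.47 and 6.88 at 0 h, a difference of 4.31 (SE 0.18, adjusted p = 2.36e-05). The antiviral GTPase gene Mx2 had levels of 9.86 and 9.91 at 1 h, against 6.09 and 5.72 at 0 h, a difference of 3.98 (SE 0.13, adjusted p = 1.19e-05). In both genes the arrays of a time lay far closer together than the times did. Rsad2 encodes viperin, an enzyme that makes a chain-terminating nucleotide against viral RNA synthesis, and had levels of 12.56 and 12.68 at 1 h, against 9.14 and 8.57 at 0 h, a difference of 3.77 (SE 0.18, adjusted p = 3.39e-05). Gbp5, a guanylate-binding protein that acts on vacuoles holding pathogens, had levels of 8.81 and 8.76 at 1 h, against 5.11 and 4.99 at 0 h, a difference of 3.74 (SE 0.10, adjusted p = 2.89e-06). Ifit1, which binds foreign RNA by its cap, had levels of 11.56 and 11.56 at 1 h, against 8.24 and 7.71 at 0 h, a difference of 3.59 (SE 0.16, adjusted p = 2.36e-05). None of these groups overlapped, and each gene kept its call whichever array was left out. The next in size were Mx1 (3.48), Ch25h (3.42), Irf1 (3.30), Cmpk2 (3.16) and Ccl12 (3.06), which complete the 10 rises of at least 8-fold among clusters with 1 symbol.

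**Figure D2:**
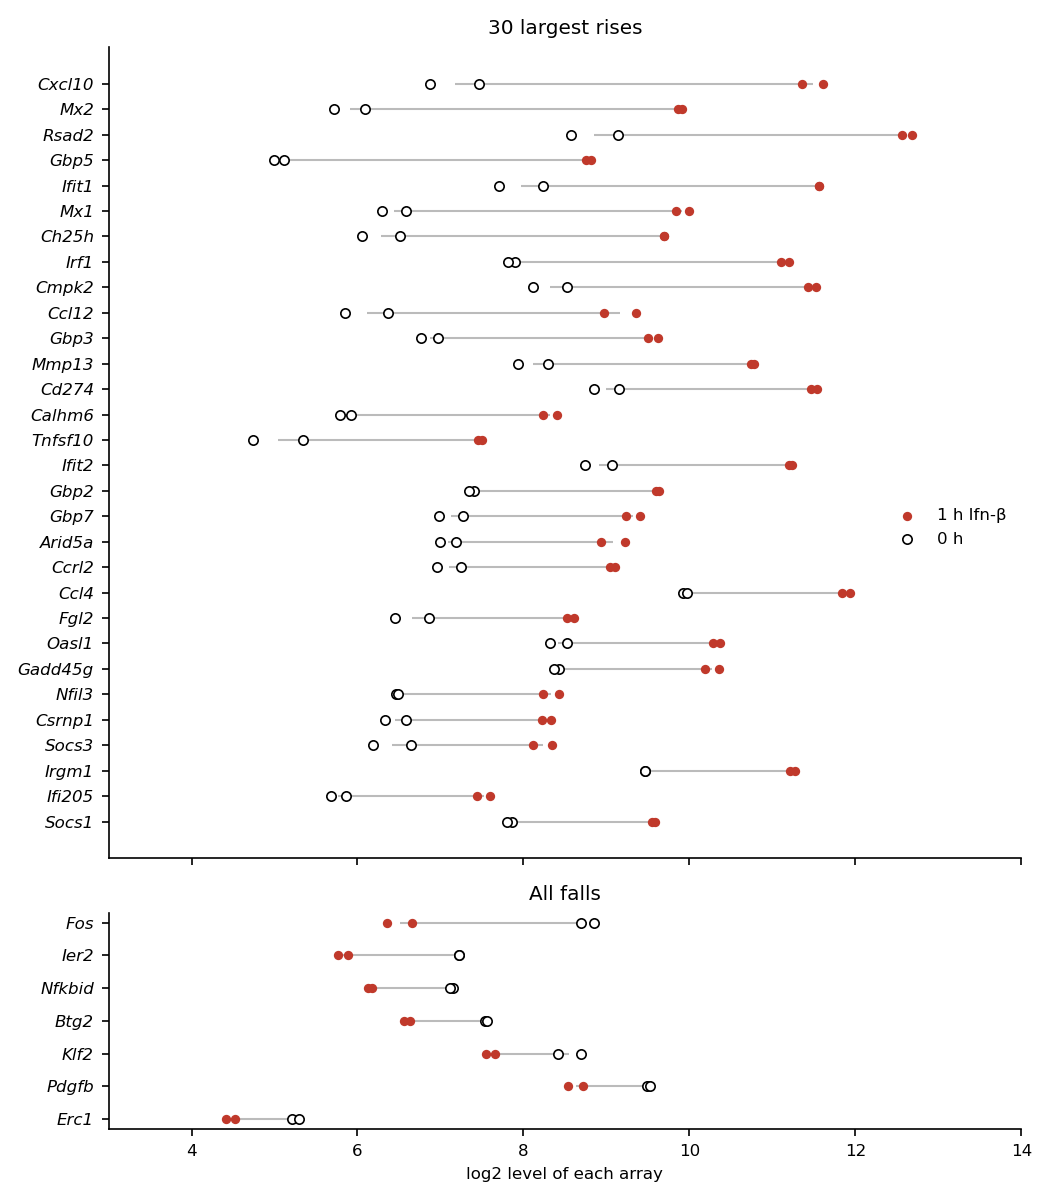
The log2 level of each array is shown for the 30 genes with the largest rises (upper panel) and for all 7 clusters called lower (lower panel), with filled red points for the 2 arrays at 1 h of Ifn-β and open points for the 2 at 0 h; grey lines join the means. In every gene drawn, the 2 times do not overlap.

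Promoters were searched in RefSeq (GRCm38.p6), over windows from 250 bases before to 50 bases after each gene's start, on either strand, for an ISRE core (GAAA, any 2 bases, then GAAA) and a GAS core (TTCNNNGAA), counting matches that overlap. The windows below belong to those of the 10 largest rises that hold an ISRE core, and show where these letters lie. The ISRE core, or its complement read on the other strand, is in capitals. It begins at base -213 from the start of Cxcl10 (chr5:92348840-92349139, minus strand), -120 of Rsad2 (chr12:26456403-26456702, minus strand) and -165 of Gbp5 (chr3:142496684-142496983, plus strand). Ifit1 (chr19:34640639-34640938, plus strand) has 2 matches, at -104 and -85.
Cxcl10: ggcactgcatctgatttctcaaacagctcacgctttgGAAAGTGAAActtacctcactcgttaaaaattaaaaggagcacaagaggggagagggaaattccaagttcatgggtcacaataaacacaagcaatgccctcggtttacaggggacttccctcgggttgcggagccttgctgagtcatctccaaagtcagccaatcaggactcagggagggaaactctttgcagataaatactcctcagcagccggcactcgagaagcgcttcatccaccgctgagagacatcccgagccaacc
Rsad2: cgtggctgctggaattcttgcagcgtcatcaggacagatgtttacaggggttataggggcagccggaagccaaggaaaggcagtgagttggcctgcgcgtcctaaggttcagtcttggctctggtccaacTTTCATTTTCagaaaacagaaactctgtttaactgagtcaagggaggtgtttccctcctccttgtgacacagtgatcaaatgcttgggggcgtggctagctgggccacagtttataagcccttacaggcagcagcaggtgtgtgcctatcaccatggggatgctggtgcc
Gbp5: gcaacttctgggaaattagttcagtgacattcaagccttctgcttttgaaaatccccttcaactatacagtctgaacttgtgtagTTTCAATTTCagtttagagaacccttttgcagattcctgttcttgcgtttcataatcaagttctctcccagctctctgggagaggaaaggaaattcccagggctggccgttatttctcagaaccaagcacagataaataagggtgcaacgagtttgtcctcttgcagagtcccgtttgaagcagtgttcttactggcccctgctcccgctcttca
Ifit1: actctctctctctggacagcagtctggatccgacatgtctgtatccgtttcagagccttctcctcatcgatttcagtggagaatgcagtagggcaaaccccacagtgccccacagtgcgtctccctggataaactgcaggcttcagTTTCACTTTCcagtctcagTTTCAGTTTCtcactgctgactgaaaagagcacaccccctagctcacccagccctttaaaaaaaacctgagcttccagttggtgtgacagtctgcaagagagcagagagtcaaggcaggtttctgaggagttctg
Of the 10 largest rises, 8 had an entry in the promoter table, and these 4 held the ISRE core. Ch25h, Irf1, Cmpk2 and Ccl12 did not. Of the 84 genes that rose, 68 were in the table and 22 of them (32.4%) held an ISRE core, against 451 of the 11869 measured genes in it (3.80%) and 1131 of all 32841 windows (3.44%). The GAS core was found in 12 of the 68 (17.6%) and in 8.64% of the measured genes. A shorter motif bound by interferon regulatory factors, AANNGAAA, lies within every ISRE core and was found in 38 of the 68 (55.9%) and in 24.2% of the measured genes. Of the 7 genes called lower, 5 were in the table, and of these 5, 0 held an ISRE core and 1 a GAS core. A match is a string of letters and not a shown binding site, and no match says only that these letters are not in this window.

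A pair of signalling genes illustrates the other motif. Irf1 and Socs3 had no ISRE core in their windows but a GAS core, in capitals below, and were chosen for display after their values were seen. It begins at base -90 in one of the 2 windows of Irf1 (chr11:53769764-53770063, plus strand) and at -154 in that of Socs3 (chr11:117969317-117969616, minus strand).
Irf1: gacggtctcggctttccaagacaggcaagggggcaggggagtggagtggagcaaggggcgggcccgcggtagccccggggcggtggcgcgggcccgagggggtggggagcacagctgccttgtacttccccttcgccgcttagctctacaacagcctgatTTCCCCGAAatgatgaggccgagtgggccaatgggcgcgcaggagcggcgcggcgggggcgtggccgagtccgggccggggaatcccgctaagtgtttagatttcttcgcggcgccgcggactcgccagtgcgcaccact
Socs3: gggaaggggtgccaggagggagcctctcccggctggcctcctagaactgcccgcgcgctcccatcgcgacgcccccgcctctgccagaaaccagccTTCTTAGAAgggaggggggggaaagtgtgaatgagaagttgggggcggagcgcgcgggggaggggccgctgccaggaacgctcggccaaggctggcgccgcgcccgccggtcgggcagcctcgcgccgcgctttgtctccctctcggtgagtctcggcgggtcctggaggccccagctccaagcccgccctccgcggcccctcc
Both genes are known targets of Stat factors. Their levels are given with the regulators that follow.

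Among transcription factors, the clearest rise was that of Irf1, a regulator of both interferon and inflammatory genes, which had levels of 11.20 and 11.10 at 1 h, against 7.90 and 7.81 at 0 h, a difference of 3.30 (SE 0.12, adjusted p = 1.19e-05). Of the 8 interferon regulatory factors measured, only Irf1 and Irf7 were called, with a median change of 0.37 for the family against 0.03 for all genes. Irf7, the factor that amplifies interferon production, had levels of 10.18 and 10.24 at 1 h, against 9.28 and 9.42 at 0 h, a difference of 0.86 (SE 0.13, adjusted p = 0.0248). Irf9, the partner of Stat2, and Irf8, a factor of myeloid cells, were not called, with changes of 0.55 and 0.47 (adjusted p = 0.149 and 0.331). Of the 18 genes measured here of the receptor, Jak kinases and Stat factors, only Stat2 was called, with levels of 9.68 and 9.73 at 1 h, against 9.01 and 8.81 at 0 h, a difference of 0.80 (SE 0.10, adjusted p = 0.0136), and the receptor chain Ifnar2 and the kinase Jak1 changed by -0.05 and 0.08 (adjusted p = 0.998 and 0.998). Other factors that rose were Nfil3, a repressor of the bZIP class (1.86, SE 0.15, adjusted p = 7.46e-04), Prdm1, the repressor Blimp1 (1.16, SE 0.17, adjusted p = 0.0227), and Etv3, an Ets family repressor (0.72, SE 0.12, adjusted p = 0.0461). Arid5a, a protein that stabilises Il6 mRNA, had levels of 9.23 and 8.93 at 1 h, against 7.19 and 6.99 at 0 h, a difference of 1.99 (SE 0.14, adjusted p = 2.71e-04), and the bZIP partner genes Mafk and Bach1 rose by 1.26 and 0.90 (adjusted p = 0.00188 and 0.0136). Of the 20 genes listed as other transcription factors and chromatin regulators, 3 were called higher and 0 lower, with 6 and 1 for an unadjusted p under 0.05 at any fold. The call of Stat2 was lost without array 4, 5 or 8 (highest adjusted p 0.119), and those of Bach1 and Prdm1 when any array of 0 h or 1 h was left out (highest adjusted p 0.14 and 0.181), and for Prdm1 also any array of 8 h. Those of Irf7 and Etv3 were lost when any 0, 1, 4, 8 or 24 h array was left out (highest adjusted p 0.182 and 0.31).

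Several genes that restrain cytokine signalling rose in the same hour. Socs1 and Socs3, which bind activated receptors and Jak kinases, had levels of 9.59 and 9.55 at 1 h, against 7.86 and 7.80 at 0 h for Socs1 and 8.35 and 8.11 at 1 h, against 6.19 and 6.65 at 0 h for Socs3. Their changes were 1.74 (SE 0.11, adjusted p = 1.35e-04) and 1.81 (SE 0.16, adjusted p = 0.00118), and neither pair of groups overlapped. A second cluster of Socs3, at a lower level, changed by 1.13 (adjusted p = 0.0148), and its call was lost when any array of 0 h or 1 h was left out (highest adjusted p 0.113). Cd274, the checkpoint ligand PD-L1, had levels of 11.54 and 11.46 at 1 h, against 9.15 and 8.85 at 0 h, a difference of 2.50 (SE 0.12, adjusted p = 3.47e-05). Nfkbiz, the nuclear IκBζ that directs a subset of NF-κB targets, had levels of 7.62 and 7.66 at 1 h, against 6.39 and 6.38 at 0 h, a difference of 1.26 (SE 0.12, adjusted p = 0.00198). In the feedback list, 4 of 22 measured genes were called higher and 1, Nfkbid, lower, with a median change of 0.10. Its uncalled members with the highest levels at 0 h were Socs6 (0.11), Ptpn1 (0.18), Il1rn (0.425) and Dusp1 (0.03), with adjusted p = 0.998, 0.987, 0.363 and 0.998. Il10ra, the ligand-binding chain of the receptor for the anti-inflammatory cytokine Il10, rose by 1.12 (SE 0.12, adjusted p = 0.00489), and Pim1, a kinase induced by Stat factors, by 0.96 (SE 0.16, adjusted p = 0.0459). The call of Il10ra was lost without array 4 or 5 (highest adjusted p 0.0669), and that of Pim1 when any 0, 1, 4, 8 or 24 h array was left out (highest adjusted p 0.238).

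Of 17 measured genes of the Ifit, Mx and viperin group, 9 rose, 0 fell, and the median change was 0.91. The group lists 31 genes, and 0.573% of all clusters were called higher. Cmpk2, a mitochondrial nucleotide kinase, had levels of 11.43 and 11.52 at 1 h, against 8.52 and 8.11 at 0 h, a difference of 3.16 (SE 0.14, adjusted p = 2.36e-05). Ifit2 had levels of 11.24 and 11.20 at 1 h, against 9.07 and 8.74 at 0 h, a difference of 2.32 (SE 0.12, adjusted p = 5.89e-05), and the exonuclease gene Isg20 had levels of 7.91 and 7.95 at 1 h, against 6.57 and 6.62 at 0 h, a difference of 1.34 (SE 0.11, adjusted p = 9.98e-04). The arrays of the 2 times were separate in all 3. Ch25h, which makes the antiviral sterol 25-hydroxycholesterol, had levels of 9.70 and 9.70 at 1 h, against 6.51 and 6.05 at 0 h, a difference of 3.42 (SE 0.23, adjusted p = 2.38e-04), and was the only called gene of 16 in the cholesterol and lipid list, where the synthesis genes Insig1 and Hmgcs1 changed by -0.04 and -0.29 (adjusted p = 0.998 and 0.689). Some members with high levels before treatment were not called, such as Ifitm3, an inhibitor of virus entry (0.26, adjusted p = 0.821), and the nucleotide hydrolase Samhd1 (0.34, adjusted p = 0.347). Rtp4 rose by 0.91 (SE 0.10, adjusted p = 0.00447), and this call was lost without array 2, 5 or 8 (highest adjusted p 0.0539). The family of 2′-5′-oligoadenylate synthetase (Oas) genes had 2 calls among 7 genes. These were Oasl1 (1.91, SE 0.13, adjusted p = 2.71e-04) and Oas1b (1.68, SE 0.13, adjusted p = 6.45e-04), while Oas2 changed by 0.63 (adjusted p = 0.0708). A cluster that carries the symbols of both Oas1a and Oas1g, and so is not among the 7, was also called higher (0.945, SE 0.12, adjusted p = 0.0134). Only RNA was measured, so the activity of these gene products was not tested.

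The interferon-inducible GTPases, which attack the vacuoles of intracellular pathogens, had the highest share of calls of all lists, 6 of 8, with a median change of 1.99. These 8 are the measured genes of 21 listed, and over all clusters 0.573% were called higher. Gbp3 had levels of 9.50 and 9.62 at 1 h, against 6.97 and 6.77 at 0 h, a difference of 2.69 (SE 0.13, adjusted p = 3.39e-05). Gbp2 had levels of 9.63 and 9.60 at 1 h, against 7.41 and 7.34 at 0 h, a difference of 2.24 (SE 0.09, adjusted p = 1.80e-05), and Gbp7 had levels of 9.24 and 9.41 at 1 h, against 7.27 and 6.98 at 0 h, a difference of 2.20 (SE 0.12, adjusted p = 7.43e-05). Irgm1, a regulator of the family that protects host membranes, began higher, with levels of 11.27 and 11.21 at 1 h, against 9.46 and 9.47 at 0 h, a difference of 1.78 (SE 0.10, adjusted p = 7.43e-05). The sixth is Tgtp1, whose cluster of highest level changed by 1.03 (SE 0.15, adjusted p = 0.0288) and whose other cluster, with 6.59 and 6.62 at 1 h, against 4.44 and 4.72 at 0 h, changed by 2.03. The first of these calls was lost without array 4, 5 or 8 and when any array of 4, 8 or 24 h was left out (highest adjusted p 0.203). Gvin1 and Irgq, the other members, changed by 0.64 and -0.05 (adjusted p = 0.236 and 0.998). Of the clusters that carry several symbols, which are outside the 14996, 13 were called higher. The largest change was 3.085, for one of Ifit3b and Ifit3. Those with GTPase genes included one of Gm4951, Iigp1 and F830016B08Rik (3.02), one of Gbp2b and Gbp7 (2.58), one of Igtp and Irgm2 (1.93) and one of Gbp4, Gbp11, Gbp6 and Gbp9 (1.88). Close copies exist of the Gbp, Tgtp, Schlafen and Ifi200 genes, and how far their probes tell them apart was not tested.

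**Figure D3:**
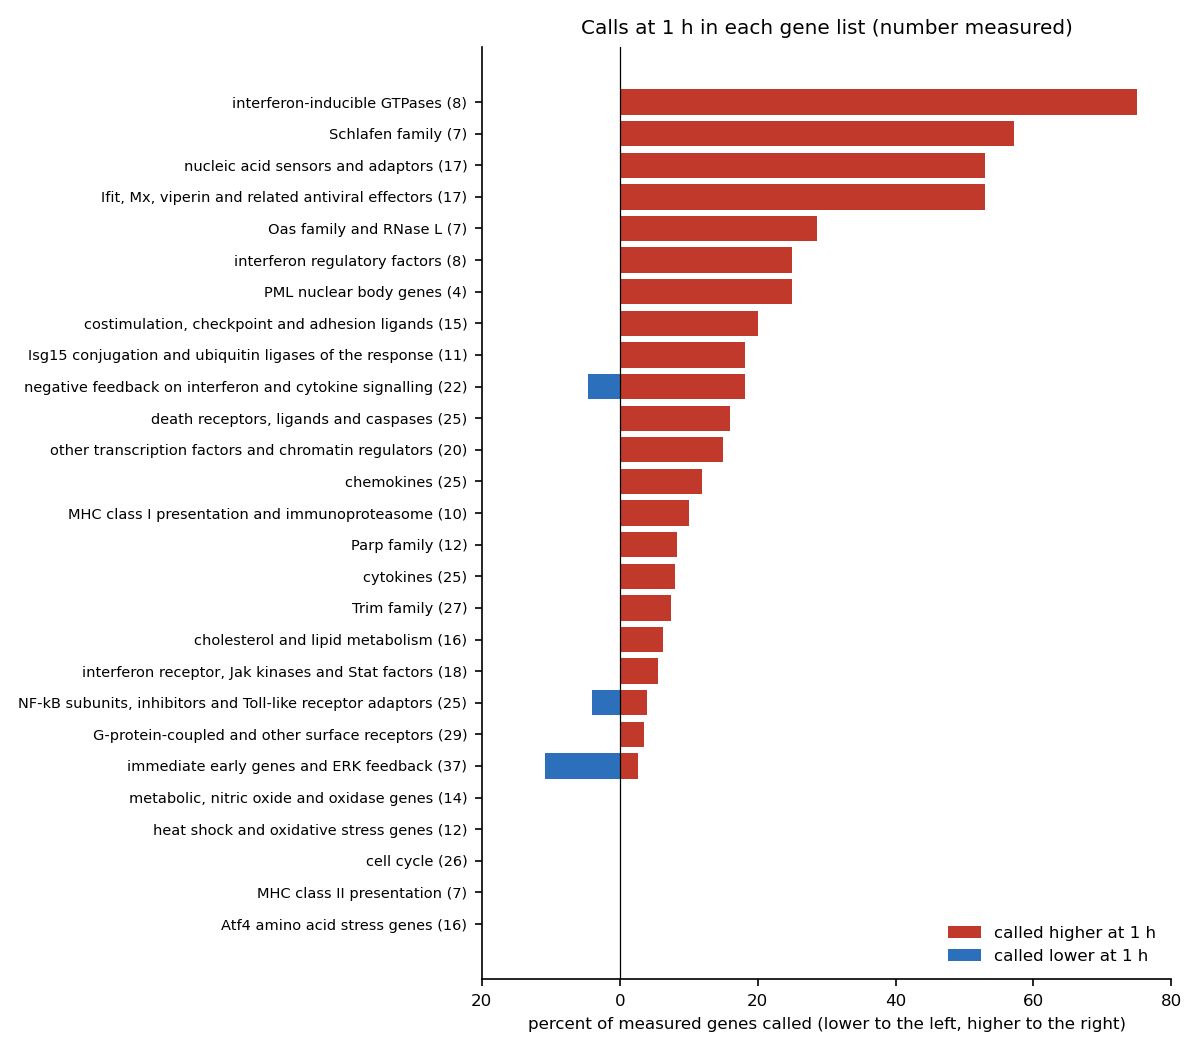
For each of 27 gene lists, the bars give the percent of its measured genes called higher (red, to the right) and lower (blue, to the left) after 1 h of Ifn-β, with the number of measured genes in brackets. The GTPases have 6 of 8 genes called higher, and the immediate early genes have the most falls, 4 of 37. Over all clusters, 0.573% were called higher and 0.0467% lower.

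Several sensors of foreign nucleic acid rose as well. Of 17 sensors and adaptors, 9 rose and 0 fell, with a median change of 0.80. The share called higher over all clusters was 0.573%. The RNA sensors Ddx58 (RIG-I), Ifih1 (MDA5) and Dhx58 (LGP2) rose by 1.08 (SE 0.11, adjusted p = 0.0027), 0.94 (SE 0.10, adjusted p = 0.00357) and 0.88 (SE 0.12, adjusted p = 0.0172). Ddx58 had levels of 9.93 and 9.96 at 1 h, against 8.95 and 8.79 at 0 h, and Ifih1 had levels of 9.05 and 9.06 at 1 h, against 8.17 and 8.06 at 0 h, so that neither overlapped. Some DNA sensors and genes of the Ifi200 family rose too. The Ifi200 genes Ifi205, Ifi203 and Ifi202b changed by 1.75 (SE 0.16, adjusted p = 0.00133), 1.00 (SE 0.11, adjusted p = 0.00447) and 0.80 (SE 0.11, adjusted p = 0.0224). Zbp1 rose by 0.92 (SE 0.10, adjusted p = 0.00401) and Cgas, the enzyme that makes the messenger cGAMP, by 1.05 (SE 0.17, adjusted p = 0.0459). The DNA sensors Aim2 and Tlr9 and the adaptor Sting1 were not called, with changes of 0.26, 0.025 and 0.30 (adjusted p = 0.998, 0.998 and 0.577). The endosomal RNA receptor Tlr3 rose by 1.02 (SE 0.12, adjusted p = 0.00646), while the abundant Tlr13 changed by 0.04 and its chaperone Unc93b1 by 0.10 (adjusted p = 0.998 and 0.998). With each array left out in turn, the number of sensors called ran from 3 to 9. Ddx58, Ifih1 and Ifi205 kept their calls throughout. Without array 5, the calls of Ifi203, Zbp1, Tlr3, Dhx58, Ifi202b and Cgas were lost (highest adjusted p 0.0598, 0.0567, 0.0787, 0.137, 0.175 and 0.25 over all arrays left out). That of Tlr3 was also lost without array 4 or 8, that of Dhx58 without array 2, 4 or 8, and those of Ifi202b and Cgas when any array of 0, 1, 8 or 24 h was left out, for Cgas also of 4 h.

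In the lists of chemokines, cytokines and surface molecules a minority of genes was called, some of them with large changes. Of all clusters, 0.573% were called higher. Of 25 chemokines, Cxcl10, Ccl12 and Ccl4 rose and none was called lower, with a median change of 0.18 (8 higher and 3 lower with an unadjusted p under 0.05 at any fold). Ccl12, an attractant of monocytes, had levels of 9.36 and 8.97 at 1 h, against 6.37 and 5.85 at 0 h, a difference of 3.06 (SE 0.27, adjusted p = 0.00118). Ccl4, an attractant of lymphocytes and monocytes, was abundant from the start, with levels of 11.93 and 11.84 at 1 h, against 9.92 and 9.97 at 0 h, a difference of 1.94 (SE 0.14, adjusted p = 3.43e-04). Ccl7 had levels of 11.22 and 11.28 at 1 h, against 10.41 and 10.05 at 0 h, a change of 1.02 that missed the threshold (adjusted p = 0.0809), and Cxcl11, another ligand of the Cxcl10 receptor, changed by 1.32 (adjusted p = 0.266). The abundant Ccl9 changed by 0.02 (adjusted p = 0.998). Of 25 cytokines, Tnfsf10, the death ligand Trail, had a rise of 2.44 (SE 0.21, adjusted p = 0.00108), while Il15, which sustains NK and memory T cells, had levels of 8.68 and 8.74 at 1 h, against 8.02 and 7.79 at 0 h, a difference of 0.81 (SE 0.13, adjusted p = 0.0433). Tnf and Il6 changed by -0.62 and 1.27, and neither was called (adjusted p = 0.168 and 0.391). Among 15 costimulatory and checkpoint molecules, Cd274, the costimulatory receptor Cd40 (0.98, SE 0.14, adjusted p = 0.0272) and Slamf7, a receptor of the SLAM family (0.82, SE 0.11, adjusted p = 0.0174), rose, and the receptor Ccrl2, which binds chemerin, rose by 1.97 (SE 0.13, adjusted p = 2.71e-04) as the only one of 29 surface receptors. The calls of Il15 and Cd40 were lost when any 0, 1, 4, 8 or 24 h array was left out, and that of Slamf7 without array 4, 5 or 8 and when any array of 4 h or 8 h was left out (highest adjusted p 0.242, 0.187 and 0.162).

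Of 10 measured genes for MHC class I loading and the immunoproteasome, 1 was called higher and 0 lower. Of all clusters, 0.573% were called higher and 0.0467% lower. With an unadjusted p under 0.05 at any fold, 5 of the 10 were higher and 0 lower. The called gene was Tap1, a subunit of the peptide transporter, with levels of 9.37 and 9.35 at 1 h, against 8.59 and 8.41 at 0 h, a difference of 0.86 (SE 0.11, adjusted p = 0.012). This call was lost without array 4, 5 or 8 (highest adjusted p 0.119). The light chain gene B2m changed by 0.10 and Psmb8 by 0.26 (adjusted p = 0.998 and 0.944), although both 1 h arrays lay above both 0 h arrays in 9 of the 10 genes, a condition that 20.2% of all clusters met. The 7 measured genes of MHC class II presentation had 0 calls by limma, and 0 with an unadjusted p under 0.05 at any fold, with a median change of 0.05 (H2-Aa 0.07, Cd74 -0.06; adjusted p = 0.998 and 0.998). At the shares called over all clusters, 0 calls among 7 genes say little. A pair of receptors for IgG rose, Fcgr4 with levels of 10.24 and 10.28 at 1 h, against 9.36 and 9.29 at 0 h, a difference of 0.94 (SE 0.11, adjusted p = 0.00646), and Fcgr1 with levels of 10.61 and 10.58 at 1 h, against 9.95 and 9.78 at 0 h, a difference of 0.73 (SE 0.11, adjusted p = 0.0227). The call of Fcgr4 was lost without array 4, 5 or 8, and that of Fcgr1 when any 0, 1, 4, 8 or 24 h array was left out (highest adjusted p 0.079 and 0.187).

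Further rises came from the Schlafen genes and from families that modify proteins. Of 7 Schlafen genes, several of which restrain T cell proliferation, 4 rose and the median change was 0.68. Over all clusters 0.573% were called higher, the share to set beside this count and those that follow. Slfn8 had levels of 9.32 and 9.45 at 1 h, against 7.89 and 7.48 at 0 h, a difference of 1.70 (SE 0.18, adjusted p = 0.00356), and Slfn5 had levels of 10.69 and 10.64 at 1 h, against 9.40 and 9.26 at 0 h, a difference of 1.34 (SE 0.10, adjusted p = 3.51e-04). Slfn3 and Slfn2 rose by 1.00 and 0.68 (adjusted p = 0.0292 and 0.0169). The calls of both were lost when any array of 0, 1, 8 or 24 h was left out, and that of Slfn3 also for those of 4 h (highest adjusted p 0.198 and 0.157). Among 27 Trim genes, Trim21, an intracellular antibody receptor (1.45, SE 0.11, adjusted p = 6.45e-04), and Trim25, a ubiquitin ligase acting on RIG-I (0.77, SE 0.09, adjusted p = 0.00914), rose, but the median of the family was 0.04. In the list of Isg15 and ubiquitin genes, Dtx3l (1.23, SE 0.10, adjusted p = 9.35e-04) and Peli1 (0.80, SE 0.11, adjusted p = 0.0184), both ubiquitin ligases, were called among 11, and the conjugating enzyme Ube2l6 changed by 0.37 (adjusted p = 0.262). These 11 are the measured genes of 17 listed, and Isg15 itself is not among them. A cluster that carries the symbols of both Uba7 and Cdhr4, and so is outside this count, was called higher (0.78, adjusted p = 0.0227). Parp14 was called among 12 Parp genes (1.04, SE 0.11, adjusted p = 0.00433), whereas Parp9, the partner of Dtx3l, changed by 0.70 (adjusted p = 0.055). Another cluster outside these counts, with the symbols of both Plec and Parp10, was called higher (1.085, adjusted p = 0.00338). Daxx, a histone chaperone of PML nuclear bodies, had levels of 9.72 and 9.78 at 1 h, against 8.32 and 8.10 at 0 h, a difference of 1.54 (SE 0.10, adjusted p = 2.67e-04), and Pml itself changed by 0.48 (adjusted p = 0.159). In the list of 25 death receptors, ligands and caspases, the inflammatory caspase gene Casp4 (0.97, SE 0.10, adjusted p = 0.00356) and Casp2 (0.72, SE 0.10, adjusted p = 0.0226) joined Tnfsf10 and Daxx. Without array 5 the calls of Trim25, Peli1, Parp14, Casp4 and Casp2 were lost (highest adjusted p 0.111, 0.133, 0.0568, 0.0518 and 0.203 over all arrays left out). Those of Trim25 and Casp2 were also lost without array 2, 4 or 8, that of Peli1 without array 4 or 8, and those of Peli1 and Casp2 when any array of 4, 8 or 24 h was left out.

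Outside the 27 lists, 26 clusters rose. Mmp13, a collagenase, had levels of 10.74 and 10.78 at 1 h, against 8.30 and 7.94 at 0 h, a difference of 2.64 (SE 0.13, adjusted p = 3.39e-05). Calhm6, a channel gene also known as Fam26f, had levels of 8.40 and 8.24 at 1 h, against 5.79 and 5.92 at 0 h, a difference of 2.47 (SE 0.11, adjusted p = 2.36e-05), and Fgl2, a fibrinogen-like protein, had levels of 8.53 and 8.61 at 1 h, against 6.86 and 6.45 at 0 h, a difference of 1.92 (SE 0.16, adjusted p = 9.35e-04). The arrays of 1 h and 0 h were well separated in these 3. Signalling genes among the 26 were Gadd45g, a stress-induced activator of p38 and Jnk kinases (1.88, SE 0.15, adjusted p = 7.12e-04), and Map3k8, the kinase Tpl2 (1.71, SE 0.19, adjusted p = 0.00442). Kdr, the receptor Vegfr2, had levels of 8.23 and 8.16 at 1 h, against 6.80 and 6.54 at 0 h, a difference of 1.53 (SE 0.13, adjusted p = 9.35e-04), and kept its call whichever array was left out. It is an endothelial marker, but the other 5 endothelial markers measured changed by between -0.06 and 0.12 and none was called. Smaller rises included the autophagy gene Rubcnl (1.20), the nucleotidase gene Nt5c3 (1.16), the helicase gene Helz2 (1.02), the lipase gene Lipg (0.97), the fission regulator Mtfr2 (1.05), Trafd1, a negative regulator of Toll-like receptor signalling (0.79), and the cyclin gene Ccnl1 (0.75), with adjusted p = 0.00664, 0.0128, 0.00426, 0.0165, 0.0106, 0.023 and 0.0487. Ccnl1 was the call nearest the threshold, and Ccnj, with 1.05 and an adjusted p of 0.0514, was nearest outside it. The calls of Map3k8 and Rubcnl were lost without array 4 or 5, those of Nt5c3 and Mtfr2 without array 4, 5 or 8, and that of Lipg without array 2, 4 or 5 (highest adjusted p 0.0546, 0.0837, 0.114, 0.11 and 0.136). Those of Trafd1 and Ccnl1 were lost when any array of 0, 1, 8 or 24 h was left out, and that of Ccnl1 also for those of 4 h (highest adjusted p 0.18 and 0.265), and that of Ppm1k, a mitochondrial phosphatase gene (1.10, adjusted p = 0.0453), whichever of the 12 arrays was left out (highest adjusted p 0.272). The rest of the 26 were Gdap10 (1.57), 9330175E14Rik (1.46), Tmem140 (1.20), Tent4a (0.86) and Tor3a (0.74), with adjusted p = 0.0418, 0.0304, 0.004, 0.0169 and 0.048. These 5 calls were also lost with some arrays left out (highest adjusted p 0.225, 0.208, 0.0518, 0.151 and 0.277). For Tmem140 these were arrays 4 and 5, for Tent4a all of 0 h and 1 h, for Gdap10 also those of 2 h and 8 h, for 9330175E14Rik also those of 4 h and 24 h, and for Tor3a all but those of 2 h. Of the 2 clusters of 9330175E14Rik, only that of higher level was called.

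Several immediate early genes, which growth factors and stress switch on within minutes, were lower at 1 h. Fos, a subunit of the factor AP-1, had levels of 6.66 and 6.36 at 1 h, against 8.85 and 8.69 at 0 h, a difference of -2.26 (SE 0.13, adjusted p = 1.07e-04). Ier2 had levels of 5.88 and 5.77 at 1 h, against 7.22 and 7.22 at 0 h, a difference of -1.40 (SE 0.15, adjusted p = 0.00401). The groups were well apart in both genes, and both calls held whichever array was left out. Btg2, an antiproliferative gene, had levels of 6.63 and 6.56 at 1 h, against 7.54 and 7.56 at 0 h, a difference of -0.96 (SE 0.15, adjusted p = 0.0344), and Klf2, a zinc finger factor that quiets macrophages, had levels of 7.66 and 7.55 at 1 h, against 8.42 and 8.69 at 0 h, a difference of -0.95 (SE 0.12, adjusted p = 0.0136). Of the 37 measured immediate early and ERK feedback genes, these 4 were called lower and Csrnp1, a nuclear factor, higher, with levels of 8.33 and 8.22 at 1 h, against 6.58 and 6.33 at 0 h, a difference of 1.82 (SE 0.19, adjusted p = 0.00365). The list's median change was -0.08, and both 1 h arrays lay below both 0 h arrays in 17 of the 37 and above them in 7, where 11.9% and 20.2% of all clusters met the same conditions. Myc fell short of the threshold, with levels of 8.68 and 8.54 at 1 h, against 9.80 and 9.87 at 0 h, a change of -1.23 (adjusted p = 0.0536), while the abundant Atf3 and Klf6 changed by 0.21 and 0.29 (adjusted p = 0.767 and 0.577). Without array 4, 5 or 8 the calls of Btg2 and Klf2 were lost, and that of Btg2 also when array 2 or any array of 4, 8 or 24 h was left out (highest adjusted p 0.198 and 0.11). No array at 1 h lacks Ifn-β, so handling and Ifn-β cannot be told apart in these falls.

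**Figure D4:**
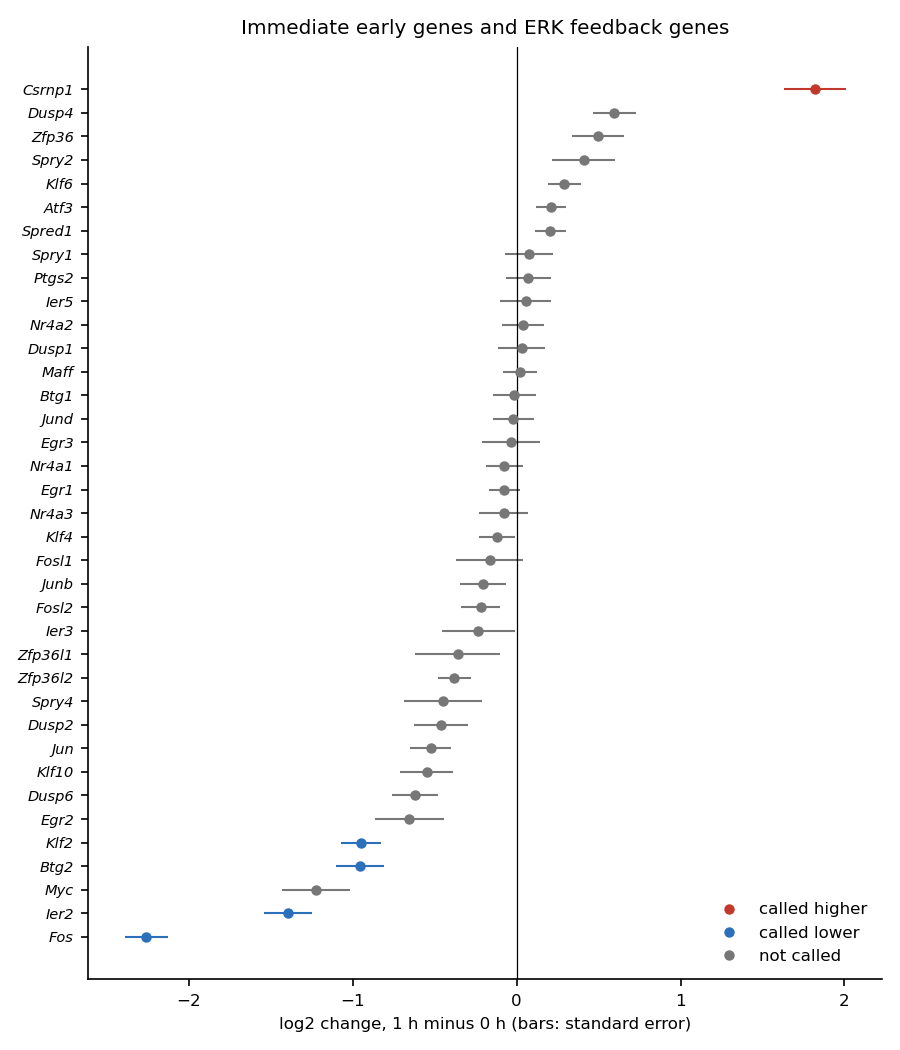
The log2 change, 1 h of Ifn-β minus 0 h, is drawn for each of the 37 measured immediate early and ERK feedback genes, with the standard error from limma as bars. Fos and Ier2 lie furthest to the left, and Csrnp1 is the only gene called higher.

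The other falls were few and smaller. Nfkbid, a nuclear inhibitor of NF-κB, had levels of 6.13 and 6.17 at 1 h, against 7.15 and 7.12 at 0 h, a difference of -0.99 (SE 0.13, adjusted p = 0.0139), opposite in sign to its relative Nfkbiz. Pdgfb, a growth factor chain for mesenchymal cells, had levels of 8.72 and 8.54 at 1 h, against 9.49 and 9.52 at 0 h, a difference of -0.88 (SE 0.12, adjusted p = 0.0194). Erc1 was called only by its lower-level cluster (-0.78, adjusted p = 0.0171), and its cluster of highest level was not called. All 3 calls were lost when any array of 0 h or 1 h was left out, and that of Pdgfb also for those of 24 h (highest adjusted p 0.133, 0.152 and 0.171). Among the 7317 clusters with no gene symbol, 12 were called lower, with a median level of 2.67 at 1 h and 4.41 at 0 h, and 10 were called higher. In the lists of cell cycle (26 measured), heat shock and oxidative stress (12), Atf4 stress (16) and metabolic, nitric oxide and oxidase genes (14), limma called 0 genes. Of all clusters, 0.573% were called higher and 0.0467% lower. At these shares, 0 calls in lists of this size say little about their genes. With an unadjusted p under 0.05 at any fold, 2, 0, 5 and 1 genes of these lists were higher and 1, 0, 1 and 0 lower. Over all one-symbol clusters, 27 that were not called changed at least 2-fold, 17 of them higher, so a cluster without a call cannot be taken as unchanged.

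The levels at later times describe where the first hour stood in the response. Of the 86 rises, 9 peaked in mean level at 1 h, 19 at 2 h, 55 at 4 h and another 3 at 8 h. Compared with 1 h, 47 of the 86 were called higher at 2 h and 0 lower (72 higher and 5 lower with an unadjusted p under 0.05 at any fold), where 0.48% and 0.0533% of all clusters were called. At 4 h against 1 h, 57 were called higher and 9 lower, where 3.17% and 4.76% of all clusters were called. The genes were chosen on the same 1 h arrays, which favours lower values later. Clusters that were lower at 4 h than at 1 h were those of Irf1, Nfil3, Csrnp1, Socs1, Nfkbiz, Prdm1, 9330175E14Rik and both of Socs3. Socs3 averaged 6.69 at 4 h against 8.23 at 1 h, and Nfil3 5.95 at 4 h against 8.33 at 1 h. Ifih1 and Gbp2 went on rising, with means of 11.57 at 4 h against 9.06 at 1 h for Ifih1 and 11.96 at 4 h against 9.62 at 1 h for Gbp2. Fos was higher at 4 h than at 1 h, with means of 8.85 at 4 h and 6.51 at 1 h, as were Btg2 and Nfkbid, while Pdgfb was lower again at 2 h than at 1 h, with means of 7.32 at 2 h and 8.63 at 1 h. Irf7, Zbp1 and Fcgr4, the 3 genes that were highest at 8 h, had changes of 0.86, 0.92 and 0.94 at 1 h. The 47 clusters that rose again at 2 h became 12 with array weights, 14 in a fit without the 8 h and 24 h arrays, and 7 to 49 when 1 array was left out, with 7 without array 5 and 11 without array 8.

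**Figure D5:**
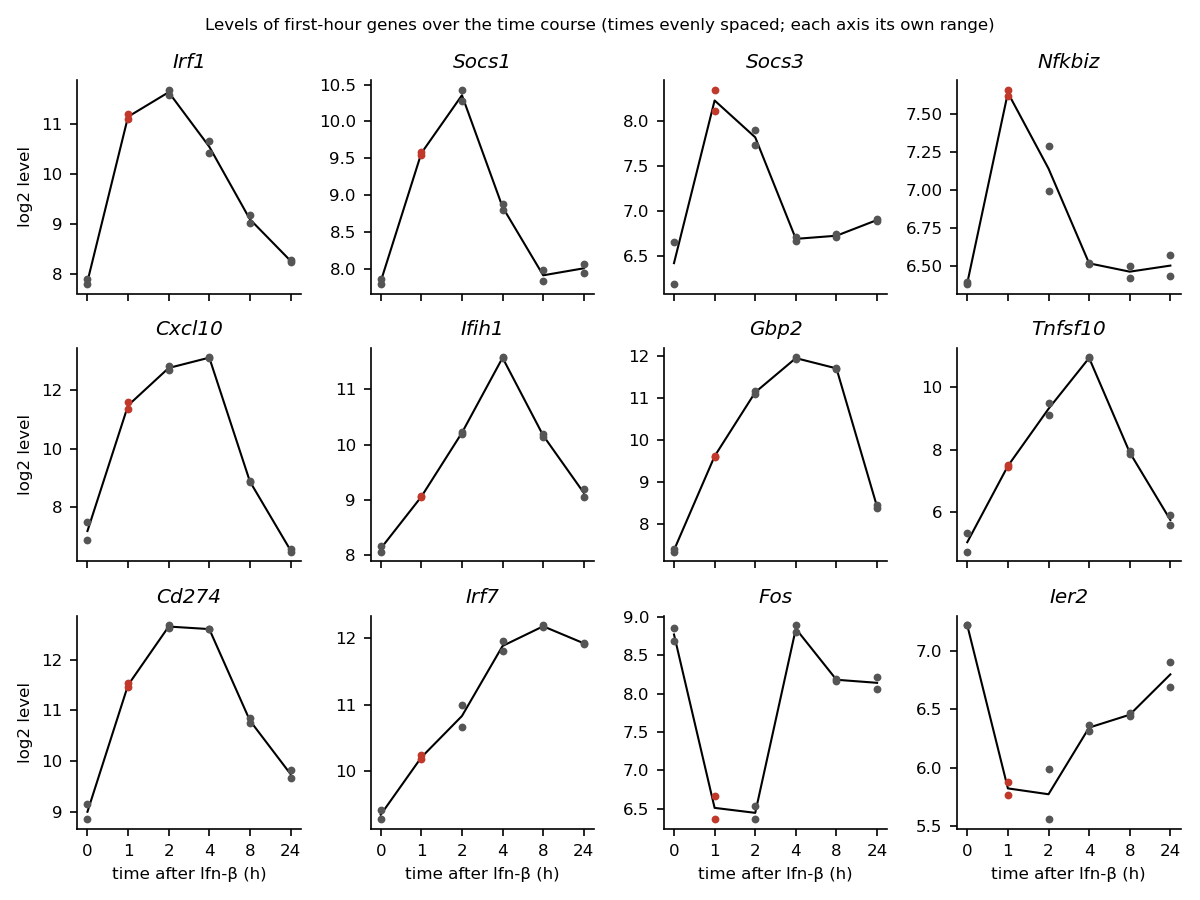
Log2 levels of 12 first-hour genes at 0, 1, 2, 4, 8 and 24 h of Ifn-β are shown, with a point for each array (1 h in red) and a line through the means; times are evenly spaced and each panel has its own vertical range. Socs3 and Nfkbiz are highest at 1 h, most others at 2 or 4 h, and Fos is back near its 0 h level at 4 h.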

How the data were processed

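Macrophage RNA of 12 samples, 300 ng each, was hybridised to Affymetrix Mouse Exon 1.0 ST arrays, 2 at each of 6 times. The deposited values are log2 levels that the authors made by RMA (background correction, quantile normalisation and median polish) in Affymetrix Expression Console at the core gene level; versions and the genome build are not given in the sources used here. They were used as deposited, with no filter. Transcript clusters were named through the platform annotation: 14996 have 1 symbol, 1019 several and 7317 none. Where a gene had more than 1 cluster (135 genes), that of highest mean stands for it. Changes were tested, two-sided, with lmFit and eBayes of limma 3.58.1 (R 4.3.3) over all 12 arrays in 6 time groups, with 6 residual and 2.31 prior degrees of freedom and Benjamini-Hochberg adjustment over 23332 clusters, and the scripts were tested on simulated data. Errors are standard errors of the fit. Arrays give no counts or depth, and their number limits the precision.

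The genes named are the 30 largest rises, all falls, every called member of 27 gene lists, and up to 4 uncalled members a list with the highest levels at 0 h. Cxcl11, Il6, Myc, Parp9, Cd74, Pml and rises outside these rules (such as Kdr, Mafk, Il10ra, Pim1 and Fcgr4) were added after their values were seen. So were Aim2, Tlr9 and Sting1. Of 578 listed genes, 443 were measured. The clusters and lists were chosen with earlier results of these data known, and lists hold genes named from these arrays, so their counts are not independent evidence. Tried as alternatives were p without adjustment, 2-fold, no threshold on fold, only the times compared, no 8 h and 24 h arrays, eBayes with trend and robust, array weights, repeated quantile normalisation, median centring, no low clusters, one-symbol clusters alone and each array left out. Fits without both 2 h or both 4 h arrays, and the comparison of 4 h with 1 h, were added after the values were seen. Promoters and their positions are from RefSeq (GRCm38.p6); tables were handled with pandas 2.3.3 and drawn with matplotlib 3.10.9 in Python 3.11.15.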

Additional observations from a re-analysis of the deposited data

How the results depend on the processing

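The results compared here are counts of calls, which can grow or shrink but cannot change direction. Against 86 clusters called higher, 7 called lower, 47 called higher again at 2 h and 0 called lower at 2 h, an unadjusted p with the fold threshold kept gave 182, 53, 86 and 8, the last 2 among the 182. At 2-fold there were 2 lower and 24 higher again. With only the arrays of the 2 times compared, limma called 0 in the first 3, where 396 were higher and 186 lower at 1 h with an unadjusted p under 0.05 at any fold, and that fit has fewer arrays to estimate the spread. Without the 8 h and 24 h arrays, the first 3 counts were 49, 2 and 14. Array weights gave 12 higher again, repeated quantile normalisation 16 lower, one-symbol clusters alone 12 lower, and a fit without both 2 h arrays 11 lower. The causes were not tested. With each array left out in turn, 44 to 99 were called higher, 2 to 11 lower, 7 to 49 higher again and 0 to 2 lower at 2 h; the array then left alone at its time was taken to vary as those of other times do. Of the 90 genes called by the cluster that stands for them, 89 or 90 kept their call with array weights, repeated quantile normalisation, centring, trend and robust moderation or no low clusters. Erc1, called only by its lower-level cluster, is not among the 90. With low clusters left out, 1 of the 7 clusters called lower was lost. No paired analysis was possible because the array numbers in the labels are not shared between times. Arrays have no depth, and by quartile of the level at 0 h the median SE of a change was 0.163 in the lowest and 0.132 in the highest.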
